A study of Mus musculus with 10 samples.

Results

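The glucocorticoid receptor gene Nr3c1, the hormone-activating enzyme gene Hsd11b1 and 8 genes that the receptor is known to regulate (Zbtb16, Fkbp5, Tsc22d3, Ddit4, Cebpb, Cebpd, Errfi1 and Glul) were followed in the lungs of arsenic-exposed and control mice. Members are all probe sets of the array whose single gene symbol is one of these 10, which gave 26 probe sets. The genes were chosen by the arsenic and control values of these same arrays, so the differences between the groups describe the members and support nothing further.

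The exposed group was 5 adult female C57BL/6 mice that drank water with arsenic at 50 ppm for 12 weeks from 8 weeks of age. The control group was 5 adult female C57BL/6 mice given distilled deionized water over the same 12 weeks. The label of one control animal gives no dose in its treatment field, and its title gives 0 ppm. The series names the compound arsenate and the sample labels name arsenite. Each array, an Affymetrix Mouse430_2, read lung RNA under its own animal number as log2 values per probe set. Precision is limited by having 5 arrays in each group. Fewer cells of a type and less RNA per cell cannot be told apart in tissue RNA. The first number in the titles is 20 for every arsenic animal and 4 for every control animal; the labels do not explain it, and whatever it marks cannot be told apart from the exposure.

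Glucocorticoid hormone (corticosterone in mice) enters cells and binds the receptor, which is held by heat-shock chaperones in the cytoplasm. The bound receptor moves to the nucleus, binds DNA and raises or lowers transcription of its targets. Some targets damp the signal in turn: Fkbp5 encodes a co-chaperone that lowers the receptor's affinity for hormone, and the receptor lowers its own gene in many tissues. In the lung, glucocorticoids drive fetal maturation and restrain inflammation.

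Sequences before the transcription starts of member genes are shown because these are the windows in which the receptor's recognition sequence was searched. RefSeq promoter windows (build GRCm38.p6, 250 bases before to 50 after a start) were at hand for 7 of the 10 genes, in 10 windows. Zbtb16, Nr3c1 and Cebpd had no window and were not searched. The first is the one member window with a single arm of the receptor's element, the next the one with the relaxed element, and the last is that of Fkbp5, which held none of the motifs searched. All are written 5′ to 3′ on the gene's strand, and capitals mark the motif.
Tsc22d3, chrX:140600473-140600772, minus strand: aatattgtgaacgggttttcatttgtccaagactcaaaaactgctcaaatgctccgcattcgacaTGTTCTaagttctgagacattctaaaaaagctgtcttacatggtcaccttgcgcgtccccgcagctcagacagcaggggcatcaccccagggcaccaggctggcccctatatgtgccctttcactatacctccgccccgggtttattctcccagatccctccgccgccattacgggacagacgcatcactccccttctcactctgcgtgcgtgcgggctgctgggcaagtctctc
Glul, chr1:153899679-153899978, plus strand: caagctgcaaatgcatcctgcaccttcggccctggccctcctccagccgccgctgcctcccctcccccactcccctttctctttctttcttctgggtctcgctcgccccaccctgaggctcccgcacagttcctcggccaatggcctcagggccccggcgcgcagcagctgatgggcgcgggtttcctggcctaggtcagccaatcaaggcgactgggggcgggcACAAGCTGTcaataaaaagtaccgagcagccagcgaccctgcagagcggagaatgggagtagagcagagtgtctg
Fkbp5, chr17:28486100-28486399, minus strand: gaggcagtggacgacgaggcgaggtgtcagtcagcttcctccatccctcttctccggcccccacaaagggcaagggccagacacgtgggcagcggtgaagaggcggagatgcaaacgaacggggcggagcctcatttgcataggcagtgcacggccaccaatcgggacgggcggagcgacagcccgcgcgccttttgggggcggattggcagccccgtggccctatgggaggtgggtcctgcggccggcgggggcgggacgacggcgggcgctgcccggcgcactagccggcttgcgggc

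The full glucocorticoid response element, the hexamer AGAACA followed after any 3 bases by its reverse complement TGTTCT, was in 0 of the 10 member windows and in 3 of the 32851 windows of all genes (0.0091%), searched on both strands. The hexamer alone (AGAACA or TGTTCT) was in 1 member window, 185 bases before one of the starts of Tsc22d3, and in 19.0% of all windows. The relaxed element ACANNNTGT, which the full element contains, was in 1 member window, 25 bases before the start of Glul, and in 6.85% of all windows. A site for the C/EBP factors that Cebpb and Cebpd encode, TTGCNNAA, was in 0 member windows and in 10.8% of all windows. These matches describe letters in short windows, and receptor sites of Fkbp5 are known to lie in its introns, outside the window shown.

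Of the 26 member probe sets, 20 passed the filter on dim probe sets (a value above 4.20, the table's overall median, on 5 or more arrays), 19 of them on all 10 arrays. The remaining kept one, a dim probe set of Nr3c1, was above that value on 3 arsenic and 5 control arrays. In a fit across all 22495 kept probe sets (limma, Benjamini-Hochberg adjustment, threshold 0.05), 5 member probe sets of 3 genes were called higher with arsenic: both kept sets of Zbtb16, both of Fkbp5 and 1 of 2 of Glul. None was called lower and 15 were not called. The count was 2 or 3 when arsenic replicate 2, 3 or 5 or control replicate 1, 2 or 3 was left out, one at a time. Over all kept probe sets 0.44% were called, 0.262% higher and 0.178% lower; since this contrast chose the members, nothing is read from the comparison of these shares. The median log2 difference, arsenic minus control, was 0.15 over all 26 member probe sets and -0.02 over every probe set of the array.

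Zbtb16, a zinc-finger transcription factor and a sensitive receptor target, rose in every exposed lung. Its brightest probe set (1439163_at) read 10.23, 10.10, 10.41, 10.61 and 10.61 in arsenic replicates 1 to 5, against 8.30, 8.39, 6.93, 7.98 and 8.54 in control replicates 1 to 5 (log2). The exposed lungs lay close together (SD 0.23) and the controls were spread (SD 0.65), with control replicate 3 the lowest, and the groups were 1.56 apart at their nearest animals. The log2 difference was 2.36 (SE 0.27), or 5.15-fold. A second probe set (1419874_x_at) gave 8.25 ± 0.20 and 7.06 ± 0.36 in arsenic and control lungs (SD, n = 5 each), a difference of 1.19 (SE 0.17). Its lowest control was replicate 4 and not replicate 3, so the order of the control animals was not the same in both sets. The remaining, dim set (1427638_at) did not pass the filter, being above the table's median on 3 arsenic and 0 control arrays; it read 4.00 to 4.78 in arsenic and 2.21 to 2.77 in control lungs. All 3 sets thus separated the groups without overlap.

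Fkbp5, the co-chaperone of the feedback loop, rose on both of its bright probe sets. The first (1416125_at) read 9.33, 10.23, 10.06, 9.93 and 10.04 in arsenic replicates 1 to 5, against 8.68, 7.72, 7.97, 8.03 and 8.39 in control replicates 1 to 5. The nearest animals were arsenic replicate 1 and control replicate 1, 0.65 apart, and the difference was 1.76 (SE 0.21), or 3.39-fold. The second (1448231_at) read 6.82, 7.91, 7.74, 7.70 and 8.30 in arsenic lungs, against 6.21, 5.06, 6.24, 6.21 and 6.24 in control lungs. Arsenic replicate 1 was again the lowest of its group, while 4 controls were nearly equal and control replicate 2 lay apart below them. Its difference of 1.70 (SE 0.30) was close to that of the first, although its call held in 1 of the 10 fits without 1 array each, that without arsenic replicate 1 (limma adjusted p up to 0.126). The first set, like the brightest set of Zbtb16, kept its call in all 10 such fits; the second set of Zbtb16 kept it in 6, ending without arsenic replicates 3 or 5 or control replicates 2 or 3. The remaining probe set of Fkbp5 was dim on every array, at 2.63 ± 0.02 and 2.66 ± 0.01 in arsenic and control lungs.

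Glul, which encodes glutamine synthetase, the enzyme that joins ammonia to glutamate, separated the groups on both of its probe sets, but by different amounts. The set that was called (1426235_a_at) read 10.24, 10.61, 10.69, 10.52 and 10.57 in arsenic lungs, against 9.75, 9.71, 9.63, 9.70 and 9.99 in control lungs. Its difference was 0.77 (SE 0.10), or 1.70-fold. The other set (1426236_a_at) read 13.35, 13.47, 13.80, 13.54 and 13.41 in arsenic lungs, against 13.27, 13.18, 13.18, 13.13 and 13.20 in control lungs, with a difference of 0.32 (SE 0.09) that was not called. On this set the nearest animals, replicate 1 of each group, were 0.08 apart. Dropping each array in turn, the call of the first set held 5 of 10 times; it ended without arsenic replicates 2 or 5 or control replicates 1, 2 or 3 (limma adjusted p up to 0.0739).

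Tsc22d3 encodes GILZ, a leucine-zipper protein through which glucocorticoids act against inflammation. It was the member nearest to the threshold without a call. Its brighter set (1420772_a_at) read 13.42, 13.69, 14.04, 13.91 and 13.87 in arsenic replicates 1 to 5, against 13.06, 13.13, 13.13, 13.05 and 13.45 in control replicates 1 to 5. A second set (1425281_a_at) read 12.88, 13.12, 13.60, 13.46 and 13.41 in arsenic lungs, against 12.37, 12.47, 12.58, 12.45 and 12.91 in control lungs. In both, the groups overlapped by 1 animal of each, arsenic replicate 1 and control replicate 5, and the arsenic value was the higher in 24 of the 25 possible pairs of animals. The differences were 0.62 (SE 0.13) and 0.74 (SE 0.15). Both sets passed the threshold without arsenic replicate 1 and in none of the other 9 single omissions, and they also passed it under a filter at the table's 75th percentile and with trended and robust eBayes. The other 2 sets of Tsc22d3 did not pass the filter: 1425557_x_at read 2.74 to 3.00 in arsenic and 2.40 to 2.68 in control lungs, and 1444365_at read 1.78 to 1.84 in arsenic and 1.78 to 1.85 in control lungs. Over all members the groups did not overlap in 6 of the 20 kept sets (all with arsenic above) and 9 of the 26, against 3.86% of all kept probe sets (2.18% with arsenic above and 1.68% below) and 4.57% of every probe set; these shares too are given without a reading.

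**Figure D1:**
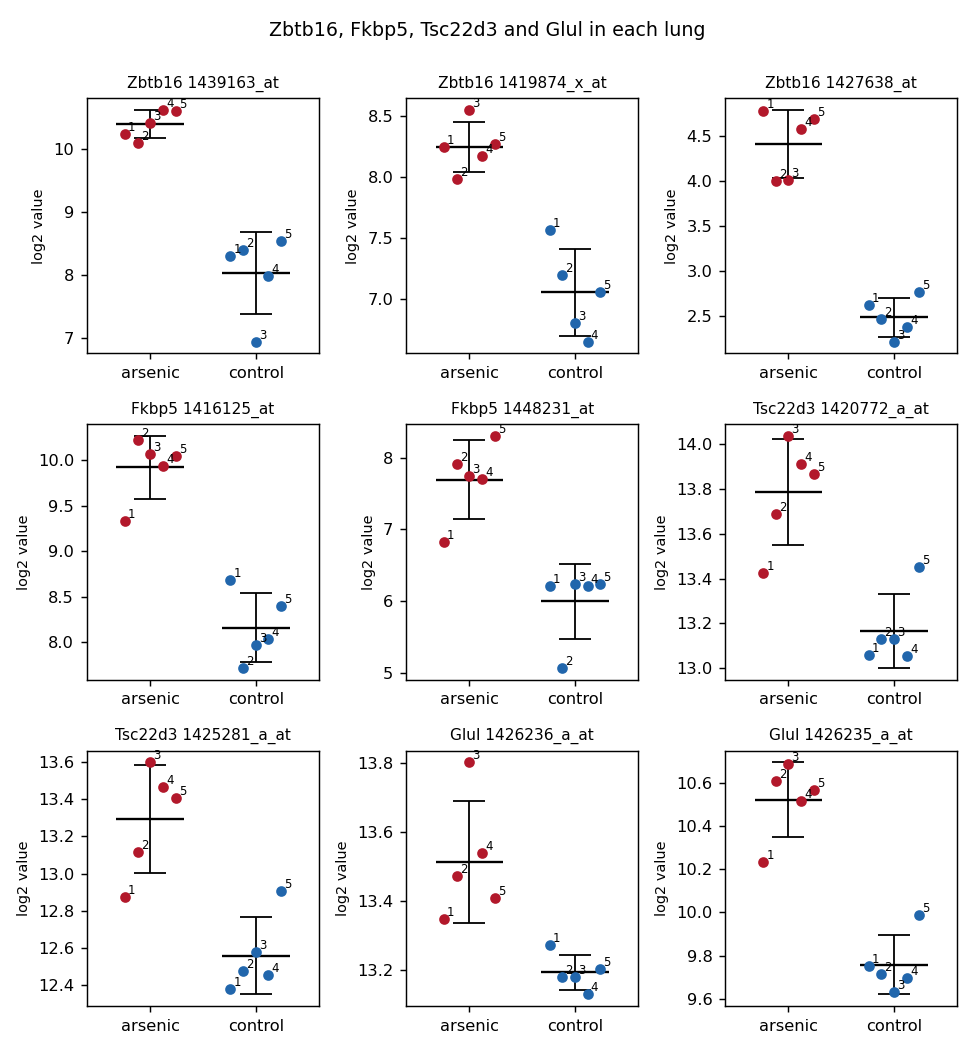
Log2 value of each probe set of Zbtb16, Fkbp5, Tsc22d3 and Glul (vertical axes, dim sets of Fkbp5 and Tsc22d3 left out) in arsenic and control lungs; points are animals with their replicate number, horizontal lines the mean and bars the SD of 5. The groups stand apart in the sets of Zbtb16, Fkbp5 and Glul, and in both sets of Tsc22d3 control replicate 5 lies above arsenic replicate 1.

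The receptor gene itself was lower on average in exposed lungs on every probe set, with overlap between the groups and no call. The brightest set of Nr3c1 (1421867_at) read 11.11, 10.05, 10.46, 11.11 and 10.52 in arsenic replicates 1 to 5, against 11.26, 11.05, 11.61, 11.25 and 10.76 in control replicates 1 to 5. Arsenic replicates 1 and 4 thus lay within the range of the controls, arsenic replicates 2, 3 and 5 lay below it, and control replicate 5 was the lowest control. The differences of the 5 kept sets ran from -0.71 (SE 0.24, 1421866_at) to -0.37 (SE 0.21, 1457635_s_at). That of the dim kept set was -0.44, or -0.29 without arsenic replicate 2. Across these 5 sets the arsenic value was the higher in 2 to 6 of 25 pairs of animals. In 5 of 5 sets arsenic replicate 2 was the lowest exposed lung, and in 4 of 5 sets control replicate 5 was the lowest control. The sets read one gene and are not independent of each other. A sixth set was dim on all arrays, at 2.94 ± 0.04 and 3.00 ± 0.03 in arsenic and control lungs.

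Hsd11b1, the reductase that regenerates active hormone from its inert form inside cells, was high in all lungs on its 1 probe set. It read 13.17, 13.17, 13.05, 13.25 and 13.40 in arsenic lungs, against 12.87, 13.18, 13.20, 12.96 and 12.98 in control lungs. The groups overlapped, and the difference of 0.17 (SE 0.09) was not called.

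**Figure D2:**
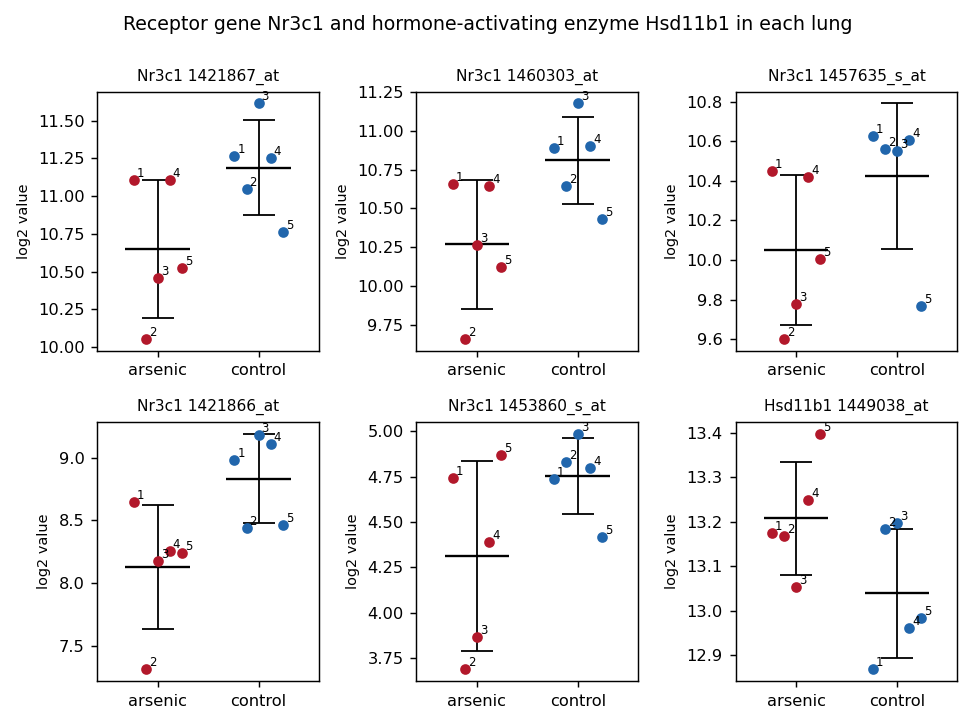
Log2 value of the 5 kept probe sets of Nr3c1 and the 1 of Hsd11b1 (vertical axes) in arsenic and control lungs; points are animals with their replicate number, lines the mean and bars the SD of 5. Arsenic replicate 2 is the lowest exposed lung in every Nr3c1 panel, and the groups overlap in all 6 panels.

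No probe set of the remaining targets was called. Ddit4, whose protein restrains the growth kinase mTOR under stress, read 8.86, 9.64, 10.46, 10.65 and 9.64 in arsenic lungs, against 9.51, 9.58, 9.71, 9.42 and 9.19 in control lungs. The exposed lungs spread over more than the controls in both directions (SD 0.72 and 0.19 in arsenic and control lungs), and the difference of 0.37 (SE 0.29) was not called. It was 0.61 without arsenic replicate 1 and 0.17 without arsenic replicate 4.

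The leucine-zipper factors Cebpb and Cebpd act in inflammation and differentiation. Cebpb had differences of 0.11 (SE 0.12) and 0.20 (SE 0.16) on its 2 sets, the brighter at 11.76 ± 0.14 and 11.65 ± 0.22 in arsenic and control lungs. They ran from 0.05 and 0.11 without control replicate 4 to 0.18 and 0.32 without control replicate 5. Cebpd read 10.84, 11.69, 11.67, 11.81 and 11.70 in arsenic lungs, against 11.46, 11.44, 11.45, 11.41 and 11.78 in control lungs (1423233_at). Arsenic replicate 1 lay apart below its group and control replicate 5 apart above its own, and the mean difference was 0.03 (SE 0.17). Without arsenic replicate 1 it was 0.21, and with array weights -0.04. A second set of Cebpd was dim on all arrays.

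Errfi1 encodes a feedback inhibitor of the epidermal growth factor receptor. Its 2 sets had differences of 0.14 (SE 0.17) and 0.13 (SE 0.16), the brighter at 13.24 ± 0.30 and 13.10 ± 0.27 in arsenic and control lungs. Leaving out 1 array at a time gave 0.07 (without arsenic replicate 4) to 0.26 (without arsenic replicate 1) on the first, and 0.06 (without arsenic replicate 3) to 0.25 (without arsenic replicate 1) on the second. Both were 0.06 with the kidney marker level as a covariate, and 0.01 and 0.02 without arsenic replicate 4 and control replicate 2.

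**Figure D3:**
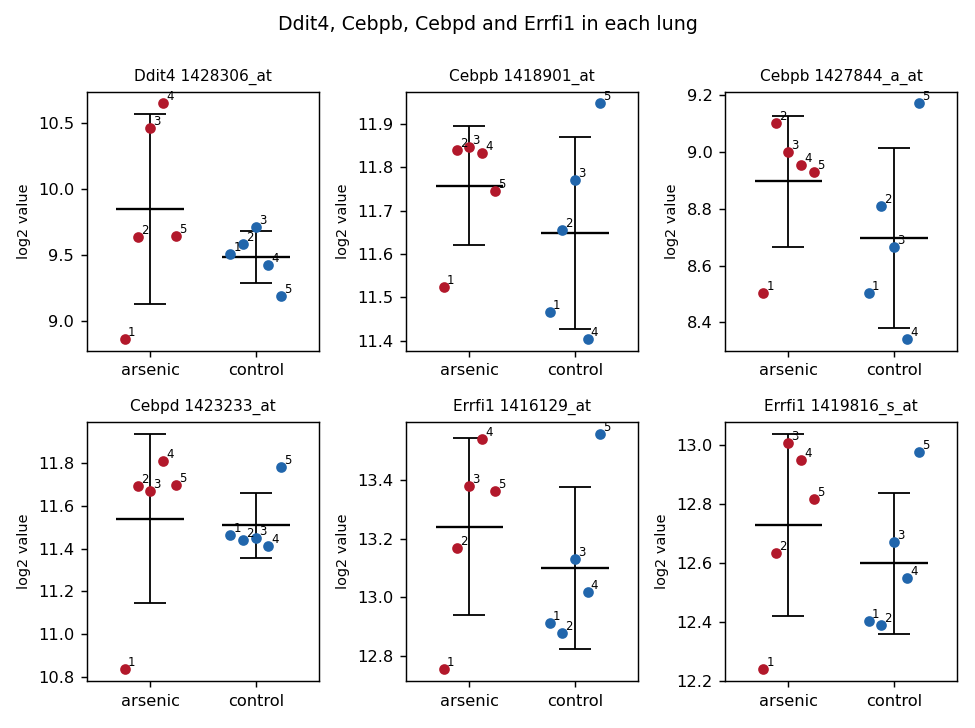
Log2 value of the kept probe sets of Ddit4, Cebpb, Cebpd and Errfi1 (vertical axes) in arsenic and control lungs; points are animals with their replicate number, lines the mean and bars the SD of 5. Arsenic replicate 1 is the lowest exposed lung in all 6 panels.

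**Figure D4:**
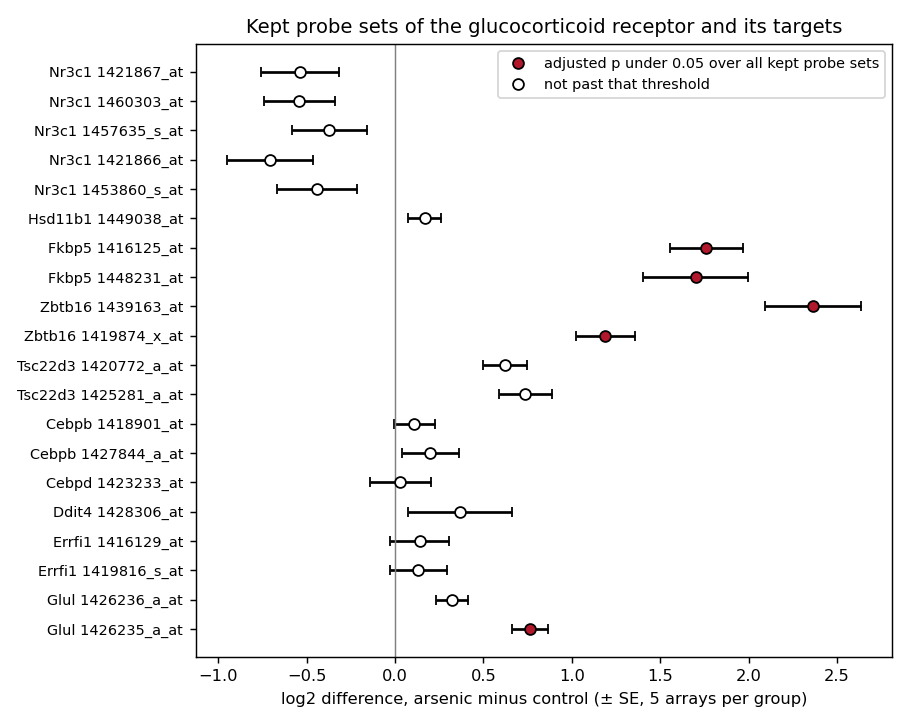
Log2 difference, arsenic minus control, with its SE (horizontal axis) for the 20 kept member probe sets, one per line; filled points passed an adjusted p of 0.05 over all kept probe sets. Nr3c1 lies left of 0 on all 5 lines, and the largest difference is that of Zbtb16, 2.36.

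The order of animals within a group recurred from gene to gene. With each gene read by its brightest probe set, arsenic replicate 1 had the highest Nr3c1 of the exposed lungs (level with replicate 4 to 2 decimals) and the lowest Fkbp5, Tsc22d3, Glul, Ddit4, Cebpb, Cebpd and Errfi1, 7 of the 10 genes. Control replicate 5 had the lowest Nr3c1 and Ddit4 of the controls and the highest Zbtb16, Tsc22d3, Cebpb, Cebpd and Errfi1, 5 of the 10. Arsenic replicate 4 was highest of its group in 4 genes and lowest in 0. With 5 animals a group no correlation was computed, and these genes were read on the same arrays. The low place of arsenic replicate 1 was not confined to the members. Arsenic replicate 1 was also the lowest exposed lung in Per1 (7.84), Sgk1 (13.15) and Dusp1 (12.37), though not in any kept set of Klf9. These genes too are known to be induced by glucocorticoids. How often arsenic replicate 1 was lowest over all probe sets was not counted, so whether the order is particular to such genes was not tested.

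Beyond the members, 5 lists of genes around the receptor were counted in the same fit: 77 genes, of which 71 had a probe set and 59 a kept one. Among genes known to be induced by glucocorticoids, 6 of 52 kept probe sets rose, none fell and 46 did not pass, against 0.262% higher over all kept probe sets. The 6 read 4 genes. With 1 of arsenic replicates 2 to 5 or control replicates 1 to 3 left out, 2 or 3 of the 52 passed, and with kidney markers in the model none did (18 had an unadjusted limma p under 0.05). Klf15, a Krüppel-like factor of fuel metabolism, read 11.29 ± 0.12 and 10.30 ± 0.20 in arsenic and control lungs (difference 0.99, adjusted p = 0.0117 by limma). Foxo3, a forkhead factor of stress and starvation, rose on 2 probe sets, by 0.75 (SE 0.09, adjusted p = 0.0117) and 0.66 (SE 0.08, adjusted p = 0.0157). The cell-cycle inhibitor Cdkn1a rose by 1.00 and 1.44 on 2 sets (adjusted p = 0.0367 and 0.0403), and the sulfotransferase Sult1a1 by 0.85 (adjusted p = 0.0399). Leaving out 1 array at a time, Klf15 and the first set of Foxo3 kept their calls in 10 of 10 fits and the second set of Foxo3 in 8, but both sets of Cdkn1a kept theirs in 2 and Sult1a1 in 1 (limma adjusted p up to 0.127), and these 3 calls also ended without a filter. For each of these 6 sets the groups did not overlap, as for 12 of the 52 and for 3.86% of all kept probe sets. Over the list the median log2 difference was 0.25 and 46 of 52 were positive, against a median of 0.03 and 55.3% positive over all kept probe sets. The 52 sets read 29 genes, and the list was chosen with earlier results of these data known, so nothing is read from its shares beside those of all probe sets.

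Other classical targets on that list did not pass. Per1, a clock gene with receptor sites, had a difference of 0.18 (SE 0.24), or 0.38 when control replicate 5, its highest animal, was dropped and 0.09 when control replicate 1 was. The kinase Sgk1 had 0.02 (SE 0.09; -0.03 to 0.08 over the single omissions), at 13.36 ± 0.17 and 13.34 ± 0.05 in arsenic and control lungs. Klf9 had positive differences on 6 sets, 0.25 to 0.36 (adjusted p from 0.252), and 0.12 to 0.46 over the single omissions. The phosphatase Dusp1 had a difference of -0.69 (SE 0.21, adjusted p = 0.174). Fkbp5 and Dusp1, both known as receptor targets, therefore had differences of opposite sign on the same arrays.

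Of the inflammatory genes that glucocorticoids are known to repress, 1 of 11 kept probe sets fell, none rose and 10 did not pass, against 0.178% lower over all. It was a dim set of Ptgs2, the inducible cyclooxygenase (1417263_at), at 3.93 ± 0.45 and 5.38 ± 0.48 in arsenic and control lungs, a difference of -1.46 (SE 0.26, adjusted p = 0.0489). It was above the filter's value on 2 arsenic and 5 control arrays, so it was tested through the group in which it was higher, and its call held in none of the 10 single omissions (limma adjusted p up to 0.152). The bright set of Ptgs2 had -1.36 (SE 0.26, adjusted p = 0.0588) with no overlap. Il1b had -0.94 (SE 0.39), which was -0.60 without control replicate 2, its highest animal. That animal also had the highest mean level of neutrophil markers, 11.31, in groups that spanned 9.26 to 9.90 in arsenic and 8.77 to 11.31 in control lungs, and their part in the value was not tested. Vcam1 had -0.29, -0.26 and 0.02 on its sets (the last -0.12 to 0.14 over the single omissions), and Csf2 0.62 (SE 0.27). None of these passed the threshold. The list's median was -0.26, and 8 of its 15 genes had no kept probe set.

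No kept probe set passed among receptor chaperones (18 sets, 3 with an unadjusted limma p under 0.05), hormone access and metabolism (6 sets, 1) or receptor coregulators (27 sets, 4). Among the chaperones, Fkbp4, the co-chaperone that competes with the product of Fkbp5 on the receptor, had -0.76 (SE 0.23) on a dimmer set, where the groups did not overlap, and 0.16 (SE 0.12) on its bright one, or 0.07 on that bright set without arsenic replicate 2. Hspa8 sets likewise had -1.26 and 0.21, 0.14 and 0.10. Stip1 had 0.35 (SE 0.12) and Bag1 0.19 (SE 0.09). The medians of the 3 lists were 0.06, -0.04 and -0.10. The mineralocorticoid receptor Nr3c2, which also binds corticosterone, had -0.28 (SE 0.10), H6pd, which feeds cofactor to Hsd11b1, 0.14, and the hormone-inactivating Hsd11b2 0.19, or 0.12 without control replicate 2. Abcb1a, a drug efflux pump, had -0.21 and -0.24, with -0.10 for the first without arsenic replicate 2 and -0.08 for the second without control replicate 4. Of the coregulators, Ncoa3 had 0.56 (SE 0.12, adjusted p = 0.0912) on a dim set and 0.01 on a bright one (-0.05 to 0.06 over the single omissions), Nrip1 ran from -0.65 to -0.28, and Med1 and Hdac2 had -0.35 and -0.56 on their sets with the smallest p, that of Hdac2 being -0.33 without arsenic replicate 2.

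**Figure D5:**
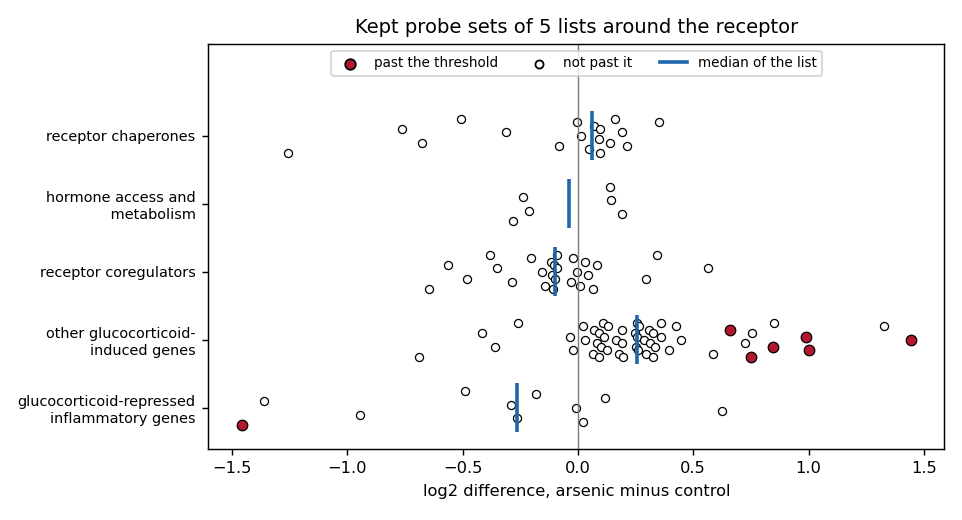
Log2 difference, arsenic minus control (horizontal axis), of each kept probe set in 5 lists of genes around the receptor (lines), the members left out; filled points passed the threshold over all kept probe sets, bars are list medians, and vertical scatter within a line only separates points. The 6 filled points of the glucocorticoid-induced list lie right of 0 and the 1 of the repressed list left of it.

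The kept probe sets most like Zbtb16 and Fkbp5 over the 10 arrays were found by root mean square distance after each set's control mean was taken off. This distance includes the difference between the groups, by which the members were chosen. Sets with a similar rise therefore come out near, and nearness does not show a shared order of animals. Nearest to Zbtb16 were Fkbp5 (distance 0.64 on the log2 scale), Fam107a (0.67) and Angptl4 (0.76). Nearest to Fkbp5 were Map3k6 (0.29), Fam107a (0.31) and Sema7a (0.49). Map3k6 read 7.85 ± 0.37 and 6.33 ± 0.24 in arsenic and control lungs. Angptl4, a lipoprotein lipase inhibitor, read 10.93 ± 0.17 and 9.60 ± 0.71 and was not called (adjusted p = 0.087 by limma), with a wide spread among controls as in Zbtb16.

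Tissue identity and RNA quality were checked on the same arrays. Array medians were 4.11 to 4.26 (log2) and arrays correlated at 0.990 to 0.997. Markers of alveolar type 2, alveolar type 1 and club cells were bright in all lungs. None of 13 marker lists differed after adjustment (exact two-sided permutation tests over all 252 splits), and 1, alveolar macrophages, had an unadjusted p under 0.05: its mean level was 9.15 to 9.55 in arsenic and 8.96 to 9.31 in control lungs (p = 0.0397, adjusted 0.31). Kidney markers (13 of 14 genes measured) had a mean level of 4.74 to 6.31 in arsenic and 3.36 to 5.30 in control lungs (exact p = 0.0873, adjusted 0.31). Of those 13 genes, 6 (Akr1c21, Aqp2, Cubn, Slc12a1, Slc12a3 and Slc22a6) had no kept probe set. The list mean joins 9 kept and 12 dropped probe sets and so hides bright ones. On its brighter set Kap read 11.75, 10.81, 11.46, 13.40 and 10.56 in arsenic replicates 1 to 5. Control replicates 1 to 5 read 2.26, 9.79, 10.73, 12.12 and 9.21. The cardiac gene Actc1 read 10.6 to 12.5 in arsenic and 10.8 to 12.1 in control lungs. The adipocyte gene Adipoq read 1.97 to 11.27 and 1.93 to 10.05. The source of these transcripts was not tested. The kidney covariate was the list mean, and no model with its bright sets alone was run. With the covariate in the model, the differences of the brightest sets of Zbtb16 and Fkbp5 were 2.49 and 1.98. That of the called set of Glul was 0.81, and each was as large as without the covariate. Other members moved more. The difference of Ddit4 was 0.16 with kidney markers and 0.37 without them. That of the brightest set of Nr3c1 was -0.75 with them and -0.54 without. In that model 6 of all probe sets were called, among them 2 member sets, the first of Fkbp5 (1416125_at) and the second of Zbtb16 (1419874_x_at). The calls of the brightest set of Zbtb16 (limma adjusted p = 0.0563), of Glul (0.0842) and of the second set of Fkbp5 (0.108) ended. Without arsenic replicate 4 and control replicate 2 the differences of the brightest sets of Zbtb16 and Fkbp5 and the called set of Glul were 2.40, 1.65 and 0.76. No probe set of the array was then called (lowest limma adjusted p = 0.056). An unadjusted limma p under 0.05 was found for 5133, 11 of them members. The 3′ minus 5′ difference of Actb, a measure of RNA integrity, was 0.63 ± 0.08 and 0.62 ± 0.04 in arsenic and control lungs (exact permutation p = 0.754). That of Gapdh had the other sign, at -0.49 ± 0.05 and -0.51 ± 0.02 in arsenic and control lungs (exact permutation p = 0.437). The part of the macrophage markers in the members' differences was not tested.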

How the data were processed

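The deposited table holds log2 values for 45101 probe sets on 10 arrays, made by the authors with GCRMA, per the submitters' processing notes; its version is not given in the sources used here, and the log2 scale was read from the range, 0.619 to 16.3. RNA was extracted with Trizol and given a Qiagen clean-up, per the labels' protocols. Groups and replicate numbers came from the titles, each animal being 1 sample.

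Gene symbols came from the platform annotation (34958 with 1 symbol, 932 with several, 9211 not listed; several or none named no gene). The 64 control probe sets were left out. Probe sets above the table's median, 4.20, on at least 5 arrays were kept (22495) and fitted as arsenic against control with limma (version 3.58.1, R 4.3.3; lmFit, then eBayes); the same code was tested on simulated data. Marker levels are means over a list's probe sets, compared by exact permutation tests in scipy 1.17.1. Figures were drawn with matplotlib 3.10.9.

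Members and lists were chosen with earlier results of these data known. Named beyond the members were up to 4 genes with the smallest p per list, Per1, Sgk1, Dusp1 and Klf9, and the 3 nearest profiles of Zbtb16 and Fkbp5. Alternatives were other filters, 1 probe set per gene, array weights, trended and robust eBayes, median centring, quantile normalization, the kidney level as a covariate, a replicate block, a threshold of 0.1, and leaving out each array, or arsenic replicate 4 with control replicate 2.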

Additional observations from a re-analysis of the deposited data

Results flagged for a closer look

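Of 68 groups of 5 values (21 member probe sets and 13 marker levels, in each group), 8 held 1 animal far from the other 4. Far was a gap over 0.71 of the range, by Dixon's criterion. Chance gives about 1 in 20 for independent groups of normal values. These groups share animals and several read the same gene, so nothing is read from their number beside that rate. Values are log2. Arsenic replicate 1 lay below its group in Cebpb (1427844_a_at), at 8.5 against 8.93 to 9.1, and in Cebpd (1423233_at), at 10.84 against 11.67 to 11.81. Control replicate 5 lay above the other controls in Cebpd, at 11.78 against 11.41 to 11.46, and in Tsc22d3 (1420772_a_at), at 13.45 against 13.05 to 13.13. It lay below them in Nr3c1 (1457635_s_at), at 9.77 against 10.55 to 10.63. Control replicate 2 was low in Fkbp5 (1448231_at), at 5.06 against 6.21 to 6.24. Among marker levels, arsenic replicate 5 was low for club cells, at 15.63 against 15.77 to 15.79, and control replicate 4 was high for liver genes, at 2.44 against 2.18 to 2.2, a list with no kept probe set.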

How the results depend on the processing

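The log2 differences of the 26 member probe sets were recomputed under 16 settings. Of 416 values, 410 moved by less than 1 SD between replicates. The 6 that moved further were dim sets under quantile normalization or median centring. Leaving out arrays cannot move a difference by 1 such SD, and the replicate block leaves it unchanged. For those settings the count was fixed in advance and shows no stability. Only quantile normalization, median centring, array weights and the kidney level could have moved a value that far. No called difference changed sign. In the called sets every arsenic value lay above every control value, so leaving out arrays could not have changed it. Counts of calls moved more. Over all kept probe sets 99 were called, against 19 without a filter, 54 with 1 probe set per gene, 167 with array weights (78 higher and 89 lower, against 59 and 40), 6 with kidney markers in the model, 4 with a replicate block and 241 at a threshold of 0.1. The 5 member calls became 2 with 1 probe set per gene, 2 with the kidney level and 0 with the block (11 with an unadjusted limma p under 0.05). The 7 calls in the pathway lists became 3 without a filter, 4 with 1 probe set per gene, 0 with the kidney level, 1 with the block and 11 at a threshold of 0.1. Leaving out 1 array gave 12 to 97 calls over all probe sets, 2 to 7 among members and 2 to 6 in the lists, and a member median of 0.11 to 0.26 (main value 0.15). Leaving out arsenic replicate 4 with control replicate 2 gave 0 in all 3 counts (30 list sets with an unadjusted p under 0.05), with 2 fewer arrays. The causes of the other changes were not tested.

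No pairing of animals by replicate number was seen. Deviations of same-numbered animals correlated above 0.1 in 1 of 5 pairs, and 0 of 10 animals correlated best with their own number. With 5 animals a group this check cannot exclude pairing. Of the pathway calls, the second set of Foxo3 lost its call without arsenic replicate 5 or control replicate 1. The 2 sets of Cdkn1a kept theirs without arsenic replicate 1 or control replicate 5, and Sult1a1 without control replicate 4. Dim probe sets limit what could be read: 6 of 26 member sets did not pass the filter.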
